A study of Mus musculus with 8 samples.

Results

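The 7 genes described here encode receptor subunits for GABA, the main inhibitory transmitter of the brain. Gabra2, Gabra3, Gabra4 and Gabra5 encode alpha subunits of the GABA-A receptor, Gabrb1 and Gabrb2 encode beta subunits of the same receptor, and Gabbr1 encodes a subunit of the GABA-B receptor. They were taken by name from the 10601 transcripts that the deposited tables pair with a gene symbol, out of 28662 transcripts with values. Gabrg1, Gabrd and Gabbr2, which encode other receptor subunits, are given only for comparison, and further subunit genes are not reported here.

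The study sequenced poly(A)+ RNA of 8 C57BL/6 mice, 4 bigenic and 4 nontransgenic, taken from the right cortex. Bigenic mice carried both the Camk2a-tTa driver and the deltaNLS-hTDP-43 responder, a human TDP-43 whose nuclear localization signal is mutated. The Camk2a promoter is active mainly in excitatory neurons of the forebrain, and doxycycline in the diet holds the transgene off. All mice, controls included, received doxycycline until 28 days of age, and tissue was taken 10 days after its removal, from 3 males and 1 female in each group. Mice with the driver alone were not analysed here, so the driver and the responder cannot be told apart in these groups.

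A GABA-A receptor is a chloride channel assembled from alpha and beta subunits and, usually, a gamma or delta subunit. GABA binds between alpha and beta subunits. The alpha subunit sets much of where the receptor sits and how it responds to drugs such as benzodiazepines: alpha2 is typical of synapses, alpha5 is largely extrasynaptic, and alpha4 commonly joins the delta subunit outside synapses. The GABA-B receptor is instead a G protein-coupled receptor, an obligate pair in which the Gabbr1 product binds GABA and the Gabbr2 product couples to the G protein. In bulk cortex, fewer cells of a type and less RNA per cell cannot be told apart.

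The values are the authors' normalized read counts. Fold changes are bigenic minus nontransgenic on the log2 scale of the normalized count plus 1, from limma fitted to 10588 transcripts, and a gene was called when its Benjamini-Hochberg adjusted p fell below 0.05. By estimate, the libraries held 10.6 M to 31.9 M reads on genes, and 3 reads correspond to 1.94 to 6.20 normalized counts, far below every value of the 7 genes. The bigenic library with the fewest reads stood apart from the other 3: it was the far value of its group, by Dixon's criterion, in 1372 of the 10588 transcripts (13.0%), against 16 to 412 for any other library. The values of the subunits, and those of several other genes that it moved, are therefore given with and without it. An annotation entry that bears no gene symbol (uc999vvf.1) read 29375 to 41550 under the bigenic label and 5 to 80 under the nontransgenic one, so the libraries separate by label.

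Of the 7 subunits, 3 were lower in the bigenic cortex and passed the test: Gabra3, Gabra5 and Gabrb1. None was called higher and 4 were not called. The same 3 were called without the library with the fewest reads. The 3 called are 42.9% of the 7 genes, beside 15.4% of all transcripts called lower, 20.5% called higher and 35.9% called in either direction. The median log2 fold change was -0.33 over the 7 genes and 0.03 over all transcripts. They were also the ones whose groups did not overlap, beside 39.0% of all transcripts, 16.7% with the bigenic group lower.

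**Figure D1:**
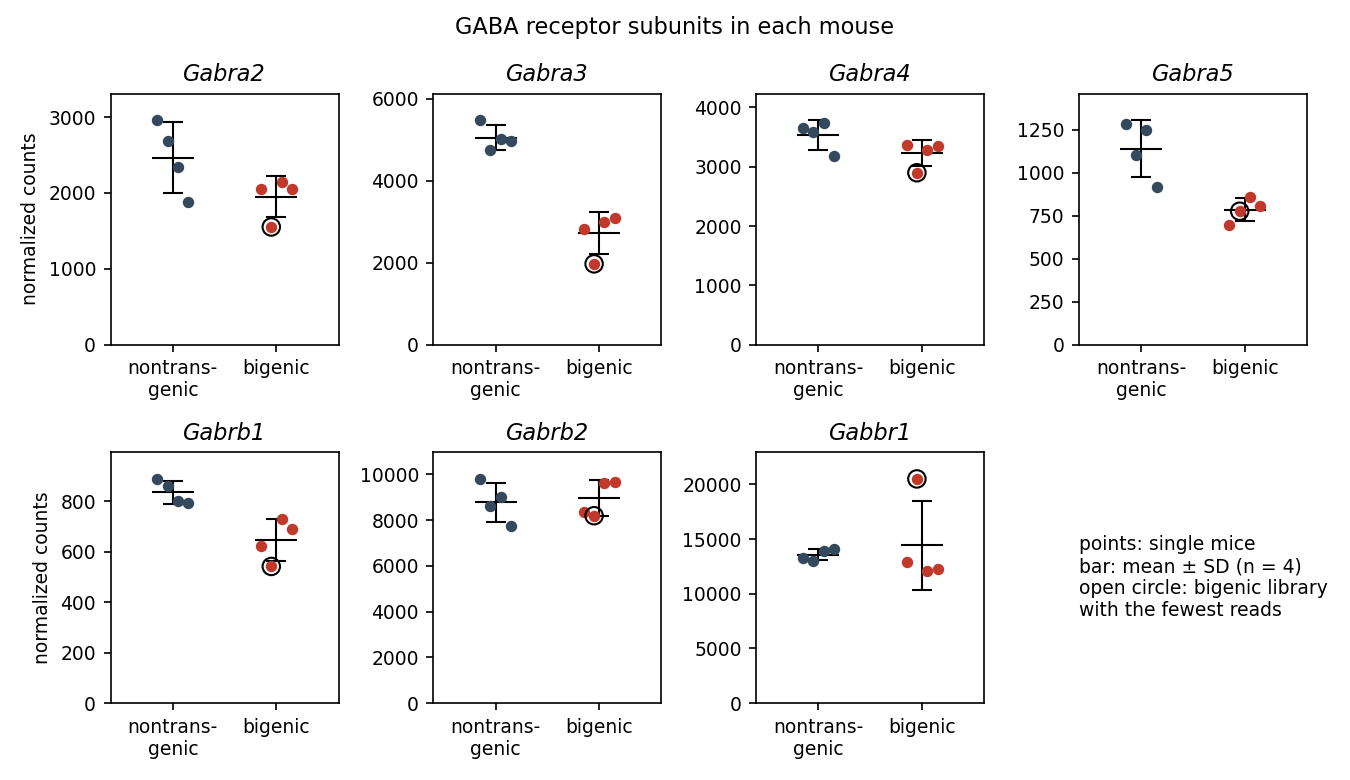
Normalized read counts of the 7 receptor subunits in each of the 4 bigenic and 4 nontransgenic mice, with the bar at the group mean and the error bar at 1 SD, and an open circle around the bigenic library with the fewest reads. For Gabra3, Gabra5 and Gabrb1 every bigenic point lies under every nontransgenic point, and for Gabbr1 a single bigenic point at 20505 lies far above the rest.

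The windows around the first RefSeq start listed for each of the 3 genes called lower are shown first. Which start the measured transcripts used was not determined. Each runs from 250 bases before to 50 bases after the RefSeq start (build GRCm38.p6), 5′ to 3′ on the gene's strand, with capitals only at a TATA-like hexamer (TATAAA read on either strand). They lie at chrX:72656870-72657169 on the minus strand, chr7:57510010-57510309 on the minus strand and chr5:71657671-71657970 on the plus strand.
Gabra3 start window: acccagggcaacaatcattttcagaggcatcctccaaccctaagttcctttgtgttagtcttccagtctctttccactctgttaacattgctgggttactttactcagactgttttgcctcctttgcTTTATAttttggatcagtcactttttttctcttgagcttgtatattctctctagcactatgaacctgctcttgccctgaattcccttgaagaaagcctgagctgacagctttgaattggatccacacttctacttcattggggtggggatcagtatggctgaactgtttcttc
Gabra5 start window: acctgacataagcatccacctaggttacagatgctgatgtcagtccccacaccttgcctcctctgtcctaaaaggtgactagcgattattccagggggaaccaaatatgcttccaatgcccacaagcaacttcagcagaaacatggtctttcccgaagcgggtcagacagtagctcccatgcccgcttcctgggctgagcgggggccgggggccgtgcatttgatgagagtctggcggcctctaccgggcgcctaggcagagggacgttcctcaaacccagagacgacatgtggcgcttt
Gabrb1 start window: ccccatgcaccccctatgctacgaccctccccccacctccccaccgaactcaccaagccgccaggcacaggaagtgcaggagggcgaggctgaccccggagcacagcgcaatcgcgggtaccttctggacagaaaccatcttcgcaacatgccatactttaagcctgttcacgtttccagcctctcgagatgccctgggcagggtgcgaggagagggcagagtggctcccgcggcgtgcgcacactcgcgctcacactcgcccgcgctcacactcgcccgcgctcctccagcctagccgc

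The 3 windows are unlike one another in base composition. The Gabra3 window held 0 CpG dinucleotides, that of Gabra5 held 13 and that of Gabrb1 held 25, around a median of 7 over the 32851 windows of the RefSeq table. Of these 3, only the Gabra3 window held TATAAA, on the opposite strand and beginning 123 bases before the start, a hexamer present on either strand in 13.6% of all windows. The letters GGGCGG (35.7% of all windows, either strand) and TGACGTCA (1.79%) occurred in none of these 3 windows. Among the subunits not called, the first windows of Gabra2, Gabra4, Gabbr1 and Gabrb2 held 2, 2, 3 and 1 copies of GGGCGG, and that of Gabrb2 also held TATAAA, beginning 30 bases before the start. RefSeq lists further starts for some of the genes. The second Gabrb1 window, at chr5:71699682-71699981, held 9 CpG and none of the 3 motifs, and the second Gabra3 window, at chrX:72656758-72657057, overlaps the first and held 0 CpG and the same hexamer.

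TDP-43 is known to bind UG-rich RNA, often inside introns, so the longest uninterrupted TG repeat in each called gene is printed too, with 25 bases on either side. Capitals mark the repeat. The repeats lie in introns on the gene's own strand, at chrX:69841377-69841416 for Gabra3 (20 repeats), chr7:64758269-64758308 for Gabra5 (20 repeats) and chr5:72245719-72245766 for Gabrb1 (24 repeats), in the mm9 genome (NCBIM37).
Gabra3 intron: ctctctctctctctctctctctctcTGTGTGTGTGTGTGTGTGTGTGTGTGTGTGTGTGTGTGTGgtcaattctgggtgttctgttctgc
Gabra5 intron: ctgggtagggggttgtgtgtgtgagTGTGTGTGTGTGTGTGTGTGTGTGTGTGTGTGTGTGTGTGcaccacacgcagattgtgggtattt
Gabrb1 intron: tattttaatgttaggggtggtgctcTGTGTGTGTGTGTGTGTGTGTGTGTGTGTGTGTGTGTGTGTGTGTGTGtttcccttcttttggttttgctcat

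Repeats of this kind were not particular to the called subunits. Counting runs of at least 6 repeats, Gabra3 held 14, Gabra5 held 5 and Gabrb1 held 33, while the uncalled Gabra2 and Gabrb2 held 20 each and Gabra4 and Gabbr1 held 3 each. Per 100 kb of gene the values were 6.25 for Gabra3, 4.89 for Gabra5 and 7.53 for Gabrb1, against 3.39 for Gabra4, 9.40 for Gabrb2, 10.3 for Gabbr1, 14.8 for Gabra2 and a median of 7.71 over all genes matched to the annotation. At least 1 such run was found in 73.7% of all genes. The repeats describe the genes' sequence, and binding was not measured in these libraries.

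Gabra3 (uc009tkp.2), which encodes the alpha3 subunit, showed the largest fall of the 7. The bigenic mice, in column order, had 2831, 1973, 2997 and 3090 normalized counts, and the nontransgenic mice had 5476, 4746, 5012 and 4970. All 4 bigenic values lay well under the lowest control, and the lowest of them came from the library with the fewest reads. The means were 2723 ± 511 and 5051 ± 306 (SD, n = 4 each), a difference of -46.1%. The log2 fold change was -0.91 (SE 0.13, 95% interval -1.21 to -0.61), with an adjusted p of 0.000871 by limma. Without the library with the fewest reads it was -0.76, with an adjusted p of 9.9e-06. The gene spans chrX:69678020-69902187 on the minus strand (mm9).

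Gabra5 (uc009heb.1) encodes the alpha5 subunit, best known from hippocampal and deep-layer cortical neurons. Its normalized counts were 698, 776, 860 and 809 in bigenic cortex and 1284, 1104, 1246 and 918 in control cortex. The groups did not overlap, but the lowest control at 918 lay close to the highest bigenic mouse at 860. The mean was 786 ± 67.9 against 1138 ± 166 (SD, n = 4 each), and the log2 fold change was -0.53 (SE 0.12, 95% interval -0.79 to -0.27), with an adjusted p of 0.00695 by limma. Here the library with the fewest reads was not the extreme value, and leaving it out gave -0.52 with an adjusted p of 0.00435. Gabra5 lies at chr7:64663060-64765379 on the minus strand, and 118 of its exon bases (4.45%) overlap exons of Gm9962 on the opposite strand. Whether the counting used strand is not given in the sources used here, so reads in that stretch cannot be assigned to either gene.

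Gabra2 (uc008xqw.1), the alpha2 subunit, is found at many synapses of principal neurons. Its bigenic values were 2046, 1551, 2147 and 2055 normalized counts and its nontransgenic values 2956, 2683, 2348 and 1878. The groups overlapped, because the lowest control lay under 3 of the 4 bigenic mice. The log2 fold change was -0.33 (SE 0.15, 95% interval -0.67 to 0.01), with an adjusted p of 0.112 by limma. The estimate depended on single mice: it was -0.22 (adjusted p 0.173) without the bigenic library with the fewest reads, and -0.45 (adjusted p 0.0310) without the fourth nontransgenic mouse. The interval therefore does not separate no change from a fall about as large as that of Gabra5.

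Gabra4 (uc008xqy.1) encodes the alpha4 subunit of extrasynaptic receptors. It varied little, with bigenic mice between 2899 and 3366 normalized counts and nontransgenic mice between 3176 and 3733. The ranges overlapped and the log2 fold change of -0.13 (SE 0.08, 95% interval -0.31 to 0.05) was not called, at an adjusted p of 0.233 by limma. It was -0.08 (adjusted p 0.342) without the library with the fewest reads. The interval from all mice lies wholly above the estimate for Gabra3 and for Gabra5.

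Gabrb1 (uc008xrb.1), the beta1 subunit, had the lowest counts of the 7. Bigenic values were 624, 542, 729 and 690 and control values 889, 861, 802 and 795. The groups did not overlap, with 729 as the highest bigenic and 795 as the lowest nontransgenic value. The means were 646 ± 81.9 and 837 ± 45.7 (SD, n = 4 each), a difference of -22.8%. The log2 fold change was -0.38 (SE 0.10, 95% interval -0.61 to -0.15) with an adjusted p of 0.0167 by limma, and -0.30 with 0.00884 without the library with the fewest reads. Leaving out the first or the second nontransgenic mouse ended the call, at adjusted p of 0.0540 and 0.0518.

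Gabrb2 (uc007imi.1) encodes beta2, an abundant beta subunit of the cortex. The 4 bigenic values were 8353, 8196, 9630 and 9658 normalized counts, and the 4 nontransgenic values 9805, 8599, 9002 and 7739. The groups interleaved, with means of 8959 ± 793 and 8786 ± 859 (SD, n = 4 each). The log2 fold change was 0.03 (SE 0.09, 95% interval -0.18 to 0.24, adjusted p 0.827 by limma), and its sign turned when single mice were left out. The estimate was 0.07 (adjusted p 0.526) without the library with the fewest reads.

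Gabbr1 (uc008cma.1), the GABA-binding subunit of the GABA-B receptor, had the highest counts of the 7. The bigenic mice had 12862, 20505, 12109 and 12260, and the nontransgenic mice 13281, 12985, 13886 and 14082. The value of 20505 belongs to the library with the fewest reads and alone set the direction. With all mice the log2 fold change was 0.05 (SE 0.15, 95% interval -0.29 to 0.40), with an adjusted p of 0.805 by limma. Without that library the other 3 bigenic mice lay under all 4 controls, and the log2 fold change was -0.13 with an adjusted p of 0.0832. Neither value was called. Its partner Gabbr2 had a log2 fold change of 0.01 (adjusted p 0.953), and 0.02 (adjusted p 0.887) without that library. The ratio of Gabbr1 to Gabbr2 counts was 2.65, 3.91, 2.20 and 2.12 in bigenic mice and 2.30 to 2.90 in controls, so the library with the fewest reads stood out in this ratio as well.

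**Figure D2:**
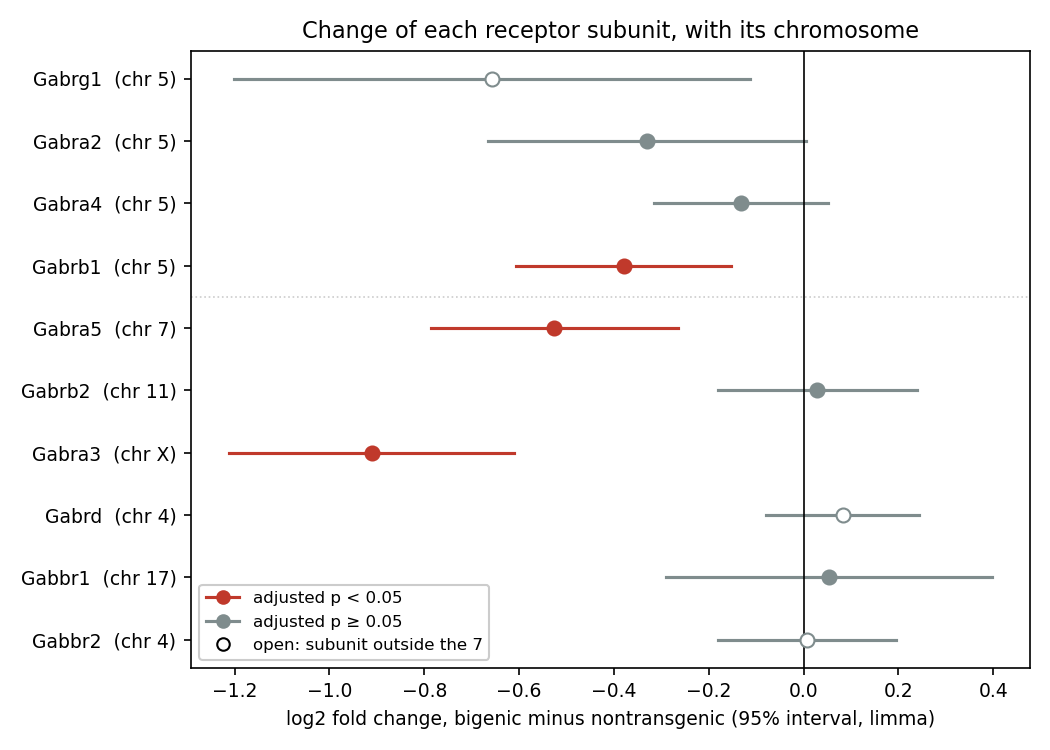
Log2 fold changes (bigenic minus nontransgenic) of the 7 subunits and of Gabrg1, Gabrd and Gabbr2, with 95% intervals from limma. The intervals of Gabra3, Gabra5 and Gabrb1 lie under 0, as does that of Gabrg1, which was not called, while those of Gabrb2 and Gabbr1 span 0. Red marks an adjusted p below 0.05 and open points are the 3 subunits outside the 7.

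None of Gabrg1, Gabrd and Gabbr2 was called. Gabrg1, which encodes the gamma1 subunit, did not overlap between groups (385 to 944 against 1056 to 1221) but missed the threshold at -0.66 and an adjusted p of 0.0596. Its value lay close to the threshold. Without the library with the fewest reads, which held the value of 385, the log2 fold change was -0.36 with an adjusted p of 0.00545. It was also called without the first or the third bigenic mouse (-0.79 and -0.77, adjusted p 0.0424 and 0.0434), under quantile normalization (-0.70, adjusted p 0.0485) and with weighted libraries (-0.45, adjusted p 0.000542), and over all alternatives the adjusted p reached 0.136. Gabrd, which encodes the delta subunit of extrasynaptic receptors, had a log2 fold change of 0.08 and an adjusted p of 0.397. Without the library with the fewest reads, Gabrd had 0.11 and an adjusted p of 0.203.

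Whether neighbouring subunit genes on chromosome 5 changed by different amounts was not tested. Gabrg1 had a limma interval of -1.20 to -0.11 for its log2 fold change, and Gabra2 had -0.67 to 0.01. The interval of Gabra4 was -0.31 to 0.05 and that of Gabrb1 was -0.61 to -0.15. All of these intervals overlap, so they do not show that the neighbours on chromosome 5 differ. There, Gabra2 (71352296 to 71487088, minus strand), Gabra4 (71960973 to 72049547, minus strand) and Gabrb1 (72091171 to 72529628, plus strand) follow Gabrg1. Gabra4 and Gabrb1 point away from each other with 41.6 kb between them in the mm9 annotation. In RefSeq the first Gabrb1 start, the one printed above, lies 387 bases inside Gabra4 on the other strand. The second RefSeq start lies outside Gabra4. The printed Gabrb1 window is therefore not at the start of the mm9 gene body. Gabrb1 was called and Gabra4 was not, and the ratio of Gabrb1 to Gabra4 counts was 0.200 in bigenic and 0.237 in control cortex, with overlapping ranges. Gabrb2 lies elsewhere, at chr11:42233259-42446092 on the plus strand, and Gabbr1 at chr17:37182911-37212012 on the plus strand. The 3 genes called lower thus lie on chromosomes 5, 7 and X.

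Of the 7 genes, the 6 GABA-A subunits have long gene bodies and Gabbr1 lies near the median. They span 29.1 kb for Gabbr1, 88.6 kb for Gabra4, 102 kb for Gabra5, 135 kb for Gabra2, 213 kb for Gabrb2, 224 kb for Gabra3 and 438 kb for Gabrb1. The median over all matched genes was 28.2 kb and the upper quartile 68.2 kb, so each of the 6, called or not, lies above the upper quartile.

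Levels can be compared between genes only per length, so the normalized counts were divided by the length of the longest coding transcript. In the nontransgenic mice Gabbr1 was the highest, at 2584 ± 97.6 normalized counts per kb (SD, n = 4). Gabra3 came next at 1379 ± 83.7, then Gabrb2 at 1146 ± 112, Gabra2 at 1031 ± 194, Gabra4 at 857 ± 59.9, Gabra5 at 429 ± 62.5 and Gabrb1 at 271 ± 14.8. Of the neighbours in this order, the ranges of Gabrb2 and Gabra2 and those of Gabra2 and Gabra4 overlapped. In the bigenic mice Gabra3 held rank 5, at 744 ± 140 per kb, behind Gabrb2 at 1169 ± 104, Gabra2 at 815 ± 113 and Gabra4 at 782 ± 53.5. The bigenic ranges of Gabra2, Gabra4 and Gabra3 overlapped from one to the next, so the order of these 3 is not settled by the mice. Gabra5 at 296 ± 25.6 and Gabrb1 at 209 ± 26.5 remained the lowest. The order also depends on the length used. Per kb of summed exon length, nontransgenic Gabra2 (1031 ± 194) ranked above Gabrb2 (886 ± 86.6). The nontransgenic ranges of Gabra3 and Gabra2 then overlapped, as did those of Gabrb2 and Gabra4. Both kinds of length came from GENCODE vM1 and need not match the exons over which the authors counted reads.

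Set against Gabrb2, the other beta subunit of the 7, the ratio of Gabrb1 counts was 0.0720 ± 0.0043 in bigenic and 0.0957 ± 0.0068 in control cortex (SD, n = 4 each), without overlap. The ratio is a description and was not tested.

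Other genes of the GABA system were called in both directions, and the share called differed between the lists. The counts stand beside 35.9% of all transcripts called, 20.5% higher and 15.4% lower. Of 22 genes for receptor scaffolds, assembly and trafficking, 6 were called higher and 3 lower, with a median log2 fold change of -0.00. Trak2, a kinesin adaptor whose product also binds the beta2 subunit, was higher at 9899 ± 1839 against 6004 ± 231 normalized counts (SD, n = 4 each, log2 fold change 0.70, adjusted p 0.00154 by limma). Hap1, a huntingtin-associated protein that takes part in returning GABA-A receptors to the surface, was lower at 770 ± 169 against 2224 ± 551 (log2 fold change -1.52, adjusted p 0.000409 by limma). Lhfpl4 (0.49), which links receptors to neuroligin 2, and Nlgn2 itself (0.48, and 0.31 without the library with the fewest reads) were called higher, and the genes for the auxiliary proteins Neto2 (-0.56) and Shisa7 (-0.43), the latter of GABA-A receptors, were called lower. Gephyrin (Gphn), the main scaffold of inhibitory synapses, was named after its value was seen: its log2 fold change was -0.09, with an adjusted p of 0.546.

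Of 16 tested genes for partners and effectors of the GABA-B receptor, 6 were called higher and 3 lower, with a median log2 fold change of -0.08. The inward rectifier potassium channel gene Kcnj9 was higher (0.68, adjusted p 0.00951 by limma), as were Kcnj6 (0.56) and Kcnj3 (0.48), both added after their values were seen. Without the library with the fewest reads, Kcnj9, Kcnj6 and Kcnj3 had 0.51, 0.40 and 0.53. These channels are opened by GABA-B receptors through G proteins. The G protein subunit genes Gnai1 and Gnb1 were lower, Gnai1 at 2960 ± 83.7 against 5291 ± 308 normalized counts (log2 fold change -0.84, adjusted p 4e-05 by limma) and Gnb1 with a log2 fold change of -0.45. Atf4 (1.34) and Ddit3 (1.06, and 0.74 without the library with the fewest reads) were called higher. Both encode transcription factors that bind GABA-B subunits and that also belong to the integrated stress response. Marcks (-0.73, and -0.57 without that library) was called lower.

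For GABA synthesis and uptake, 4 of 8 tested genes were called lower and none higher (median log2 fold change -0.25). The number called dropped to 2 without the first or the third nontransgenic mouse and to 1 without the second. Among them were the GABA transporter gene Slc6a11 (-0.41, adjusted p 0.0167 by limma), the degrading enzyme gene Aldh5a1 (-0.37, adjusted p 0.00651) and the synthetic enzyme gene Gad1 (-0.19, adjusted p 0.0453). The vesicular transporter Slc32a1, named after its value was seen, had a log2 fold change of -0.04 and an adjusted p of 0.721. For chloride transport and its control, 5 of 13 tested genes were called higher and 1 lower (median 0.00). That total of 6 was 3 without the first or the second nontransgenic mouse and 2 without the third, and weighting the libraries gave 5 higher and 4 lower. Wnk2 (0.55, and 0.38 without the library with the fewest reads), Oxsr1 (0.39) and Car7 (0.41) were higher and Car2 (-0.56) was lower. Slc12a5, the neuronal chloride extruder KCC2 and also named after its value was seen, was among the higher, at 12516 ± 1374 against 10155 ± 424 normalized counts (SD, n = 4 each, log2 fold change 0.30, adjusted p 0.0227 by limma).

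The markers of the cell types that carry these receptors were checked beside the subunits. The summed level of 18 excitatory neuron markers was 68461 to 91033 normalized counts in the bigenic and 105249 to 115675 in the nontransgenic mice, with 5 called lower and 1 higher. The value of 91033 came from the library with the fewest reads, and the other bigenic mice summed to 68461 to 78363. Rasgrf2, an upper-layer gene, was lower by -1.35, whereas Slc17a7, the vesicular glutamate transporter of excitatory neurons, had 0.15 and an adjusted p of 0.327. Of 17 interneuron transcripts 7 were called lower and 1 higher, with sums of 28621 to 31130 against 33667 to 35733. Astrocyte markers (4 of 11 lower, none higher) summed to 127776 to 147288 against 155775 to 167301, and microglial markers (5 of 9 lower, none higher) to 5268 to 6873 against 7057 to 8321. Oligodendrocyte sums overlapped (66375 to 88012 against 67095 to 84083, 1 of 10 called higher), and those of endothelial markers did as well (5793 to 6737 against 6552 to 7336, 1 of 8 called lower). Without the library with the fewest reads, 8 interneuron transcripts were lower and 2 higher, 5 excitatory markers lower and 1 higher, and 5 astrocyte and 5 microglial markers lower. Leaving out the first, the second or the third nontransgenic mouse instead left 4, 3 or 5 interneuron transcripts called, of 8 with all mice. The part of these differences in the values of Gabra3, Gabra5 and Gabrb1 was not tested.

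Genes listed as markers of neighbouring tissue also differed between the groups. Whether they reflect tissue carried along at dissection or levels within the cortex was not tested. Of 5 choroid plexus markers tested, 4 were called higher, with sums of 14101 to 29169 against 6544 to 8183. Ttr led at a log2 fold change of 4.34, and 4.58 without the library with the fewest reads. Of the 12 listed, 7 were not tested, and a gene could enter the test through a single high mouse. Clic6 (125 to 260 against 23 to 46) passed the low-value filter in the first bigenic mouse only. The number called was 2 without that mouse and 1 when genes had to pass the filter in every mouse. Clic6 was not tested in either setting, so these counts and sums depend on which genes entered the test. Hippocampal markers summed to 3787 to 4466 against 6076 to 6773, with 2 of 5 called lower, among them Wfs1 (-1.41). Those 2 were the only ones lower in direction, and the median log2 fold change of the list was 0.05. Wfs1 alone had a mean of 824 in bigenic and 2202.5 in nontransgenic mice, so the sum leans on single genes. Prox1, the dentate gyrus marker, had 0.07 and an adjusted p of 0.653. Thalamic markers (3 of 4 lower, 1 higher) summed to 1483 to 1928 against 1926 to 2170, and striatal sums overlapped (5957 to 14266 against 7149 to 10647, 1 of 9 called lower). Gabra5 is abundant in hippocampus. Whether the lower hippocampal sum has a part in the Gabra5 value was not tested.

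**Figure D3:**
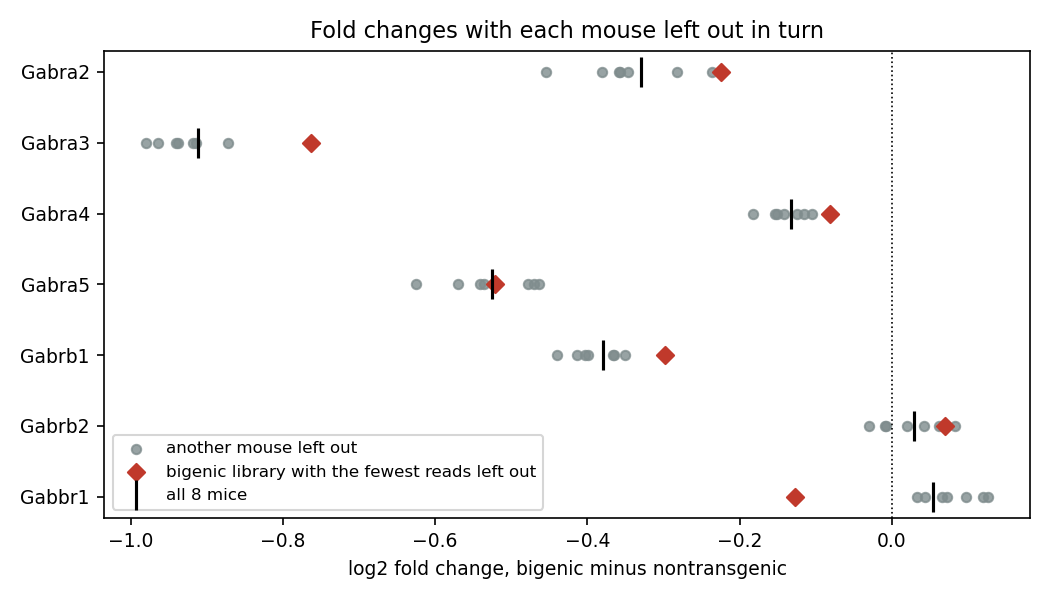
Log2 fold change (bigenic minus nontransgenic) of the 7 subunits fitted to all 8 mice and to every set of 7, with a red diamond where the bigenic library with the fewest reads is left out and a black line for all mice. Gabra3 stays between -0.98 and -0.76 and Gabra5 between -0.62 and -0.46, while Gabbr1 runs from -0.13 to 0.13 and Gabrb2 from -0.03 to 0.08.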

How the data were processed

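Cortical poly(A)+ RNA of 4 bigenic and 4 nontransgenic mice was sequenced with 50-base single-end reads. Per the labels and methods, the authors trimmed reads with cutadapt, aligned them to mm9 with Bowtie 0.12.7, kept unique alignments, counted reads per exon with bedtools, summed them to genes and analysed them with DESeq2. The deposited values are counts scaled by 1 factor per mouse, by a method not given in the sources used here, and rounded to whole numbers, a score and not raw counts, so limma was used in place of a count test. The value of 1 read in each column was estimated from the steps between low values, which gave the depths. The other deposited table was read for identifiers and symbols only, and the authors' fold changes, standard errors and p-values in it were not used.

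Transcripts with at least 0.001% of the column total in at least 1 mouse entered the fit, and log2 of the value plus 1 was tested with limma 3.58.1 (R 4.3.3), empirical Bayes moderation with a mean-variance trend and Benjamini-Hochberg adjustment over all 10588 transcripts. All 7 subunits passed the filter. On simulated data, 180 of 200 genes that were doubled or halved, among the 10588, were called, with 7 unchanged genes called. The simulation used independent noise and made no library stand apart. These numbers therefore need not hold for the real libraries or for smaller changes. The p-values measure the spread between these mice. Depth limits and the floor of 3 reads cover counting error only.

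Columns carry the group but no replicate number, so mice are named in column order. The 7 genes and the gene lists were chosen with earlier results of these data known. Genes were named by rule: the receptor subunits, up to 3 called genes with the largest change in each direction in a GABA list, 1 in each direction and the first 2 listed in a marker list, Tardbp, and the 2 genes most like each subunit. Not all of them are described, and some genes are not reported here. Gene positions came from GENCODE vM1 (NCBIM37), start windows from RefSeq (GRCm38.p6), with Python 3.11.15. Alternatives were other pseudocounts, no filter or a filter in every mouse, a common column total, quantile normalization, array weights, stricter thresholds, leaving out each mouse, and limma voom on approximate reads.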

Additional observations from a re-analysis of the deposited data

Results flagged for a closer look

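In 118 groups of 4 mice (59 named genes in both groups), 7 held a value far from the other 3 by Dixon's criterion. Chance flags about 1 in 20 groups. Of the 7, 3 came from the bigenic library with the fewest reads and 3 from the fourth nontransgenic mouse. That library held the high Gabbr1 value of 20505 normalized counts, against 12109 to 12862 in the other bigenic mice. It also held the low Gabra2 value of 1551, against 2046 to 2147. For Wnk2, a kinase that controls chloride transporters, it was the highest at 6552, against 4007 to 4185.

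The fourth nontransgenic mouse had 4788 for Nlgn2, against 3987 to 4028 in the other controls, and 3754 for Wnk2, against 2899 to 2988. The same mouse had 4049 for Atf4, against 3207 to 3331. Over all 10588 transcripts it was the far value of its group in 412 (3.89%). Only the bigenic library with the fewest reads stood apart more often. The third bigenic mouse had 881 for Cx3cr1, a microglial receptor, against 802 to 809 in the other bigenic mice.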

How the results depend on the processing

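Gabra3, Gabra5 and Gabrb1 were called in all 8 alternatives that kept every mouse and the adjusted p threshold of 0.05, with log2 fold changes of -0.93 to -0.73, -0.58 to -0.51 and -0.44 to -0.26. With each mouse left out in turn they were -0.98 to -0.76, -0.62 to -0.46 and -0.44 to -0.30, and Gabrb1 was not called in 2 of those fits (adjusted p 0.0540 and 0.0518). Array weights, which give a library less weight where it varies more, called Gabra2 (-0.27, adjusted p 0.0121) and Gabra4 (-0.12, adjusted p 0.0452), and turned Gabbr1 to -0.13 (adjusted p 0.0599). The cause was not tested. Leaving out 1 mouse gave -0.45 to -0.22 for Gabra2, -0.18 to -0.08 for Gabra4, -0.030 to 0.084 for Gabrb2, -0.13 to 0.13 for Gabbr1 and -0.036 to 0.054 for Gabbr2.

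The number of transcripts called, 3796 of 10588, was 2057 at an adjusted p below 0.01, 1314 with a fold change of at least 1.5 as well, 6455 with array weights and 2654 to 4782 with 1 mouse left out. Of the 7 subunits, 3 were called, 2 at an adjusted p below 0.01, 1 with the fold threshold, 5 with array weights and 2 to 4 with 1 mouse left out. Of 240 list counts under these alternatives, 191 stayed within 1.5 times the reported count. With 1 mouse left out, the genes called ran from 0 to 2 for oligodendrocyte markers, 0 to 1 for endothelial, 0 to 3 for striatal and 2 to 4 for thalamic markers. Limma voom on approximate reads was chosen after seeing the data and called 3903 transcripts. No paired analysis was possible because the columns carry no replicate numbers.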

Other observations

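The genes most like each subunit over the 8 mice are given by Pearson's r, as a description: all values share the same libraries and the same 2 groups. Gabra3 was most like Cdkl4 (0.997) and Atp8a1 (0.997), Gabra5 like Arf1 (0.989) and Scube1 (0.980), and Gabrb1 like Kctd4 (0.997) and Xk (0.991). Gabra2 was most like Bche (0.980) and Brca2 (0.967), Gabra4 like Slitrk1 (0.989) and Rgs5 (0.982), and Gabrb2 like Rab1b (0.982). Gabbr1 was most like Sec63 (0.994) and Glrx5 (0.994), and with 1 bigenic library far above the others in Gabbr1 that likeness rests on this library.

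Endogenous Tardbp, the mouse gene for TDP-43, was lower in the bigenic mice, at 5180 ± 249 against 6538 ± 420 normalized counts (SD, n = 4 each, log2 fold change -0.33, adjusted p 0.0064 by limma).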
